A study of Bos taurus with 24 samples.

Results

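Genes of blood and lymphatic endothelium were measured in subcutaneous adipose tissue of mature beef cows that were first feed restricted and then fed ad libitum. The list held 38 symbols, of which 37 were matched to the array by their gene symbol, out of 18444 distinct symbols among the clusters tested. ICAM2 had no cluster with it as the single symbol and is not analysed here. Of the 37 genes, 36 had 1 transcript cluster, and the brighter of the 2 clusters was taken for ENG. The genes were taken up because such markers had responded differently to the diets in the gain groups of these same animals. For that reason the difference of response, and the values of each gain group or each diet that make it up, are given as a description, with counts of calls beside the share of all clusters called, from which nothing is read. The change between the diets averaged over both gain groups, and the difference between the gain groups averaged over both diets, are arithmetically separate from it and were tested.

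The animals were 12 mature 5-year-old, non-pregnant, crossbred cows chosen from a larger herd for the extremes of body weight gain at ad libitum feeding, 6 of high gain (H1 to H6) and 6 of low gain (L1 to L6). All were held on a fixed, restricted amount of 1 ration and then offered that ration ad libitum, and high gain cows also ate more when feed was free. A biopsy was taken from the left side at day 105 of restriction and from the right side at day 49 of ad libitum feeding, so that diet cannot be told apart from side, day and period. The average RNA integrity number, by the study's methods, was lower for the biopsies at restriction, and its part in the changes between the diets was not tested. Breed composition was not the same in the gain groups, which cannot be told apart from gain either. Each of the 24 biopsies was measured on 1 Bovine 1.1ST array, and values are log2 signals of transcript clusters with the median of the array subtracted, so that 0 is the median of that array. The signal in whole tissue cannot tell fewer cells of a type from less RNA per cell.

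Endothelial cells line blood and lymphatic vessels. They are held together by junction proteins such as VE-cadherin, and their growth and quiescence are set by receptors for VEGF, angiopoietins, BMPs and sphingosine-1-phosphate. In adipose tissue the capillary bed delivers lipid and oxygen to the adipocytes and remodels as the tissue grows or shrinks, and lymphatic vessels are marked by PROX1, LYVE1 and PDPN. The 37 genes fall into 12 junction, adhesion and surface proteins, 12 receptors, 5 transcription factors, 5 secreted proteins and NO synthase, and 3 lymphatic genes.

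The endothelial label was checked on markers of these cells. VWF, the clotting protein stored in endothelial granules, lay above the array median on all 24 arrays, with a lowest value of 2.01. ESAM and JAM2, adhesion molecules of endothelial junctions, did so too, with lowest values of 2.00 and 4.41. Not all endothelial genes of the list did. The means over all arrays of MMRN1, SOX18, APLNR, SOX7, SOX17, PCDH12, FLT4 and SELE lay below the array median, from -1.78 (MMRN1) to -0.17 (SELE). The lymphatic label rested on fewer genes. PROX1, the transcription factor that defines lymphatic endothelium, was below the array median on all arrays, at a group mean of -2.20 to -1.81. LYVE1, also made by some macrophages, and PDPN, also made by fibroblasts, were above it in every group mean. Markers of mature adipocytes, as a list of 14 genes, had mean levels of 7.38 to 9.13 above the array medians over all arrays. Lists for platelets, erythrocytes, lymphocytes, skeletal muscle and skin had group means below the array median. Arrays of 2 cows from 1 group had correlations of 0.961 to 0.986 over the clusters.

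Averaged over both gain groups, 7 of the 37 genes were higher and 10 were lower at ad libitum feeding than at restriction, at an adjusted p under 0.05 in limma with the method of Benjamini-Hochberg over all 24997 clusters. The background was high, since 26.5% of all clusters were higher and 24.1% were lower. The median log2 change was 0.02 for the 37 genes and 0.00 for all clusters. With the cow as a block, 12 genes were higher and 9 lower, beside 27.3% and 24.7% of all clusters. KDR, ENG, ROBO4, CLEC14A and EGFL7 were gained, all as higher, and FLT4 was lost. The genes moved in both directions, as all clusters did. The higher genes were CDH5, CD34, PCDH12, PLVAP, APLNR, SOX7 and PROX1, and the lower ones were SELP, TEK, TIE1, FLT4, S1PR1, ERG, FLI1, SOX18, VWF and PDPN. Of these, 4 higher genes (CD34, PCDH12, PLVAP and APLNR) and 9 lower genes (all but FLT4) were also called with quantile normalization and on the deposited scale without centring. On the deposited scale all clusters shifted down, by medians of -0.42 in high gain and -0.43 in low gain cows. Far more clusters were called lower than higher there, so a lower call on that scale adds little. SOX7 and PROX1 had the other sign on the deposited scale, at -0.023 and -0.19.

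**Figure D1:**
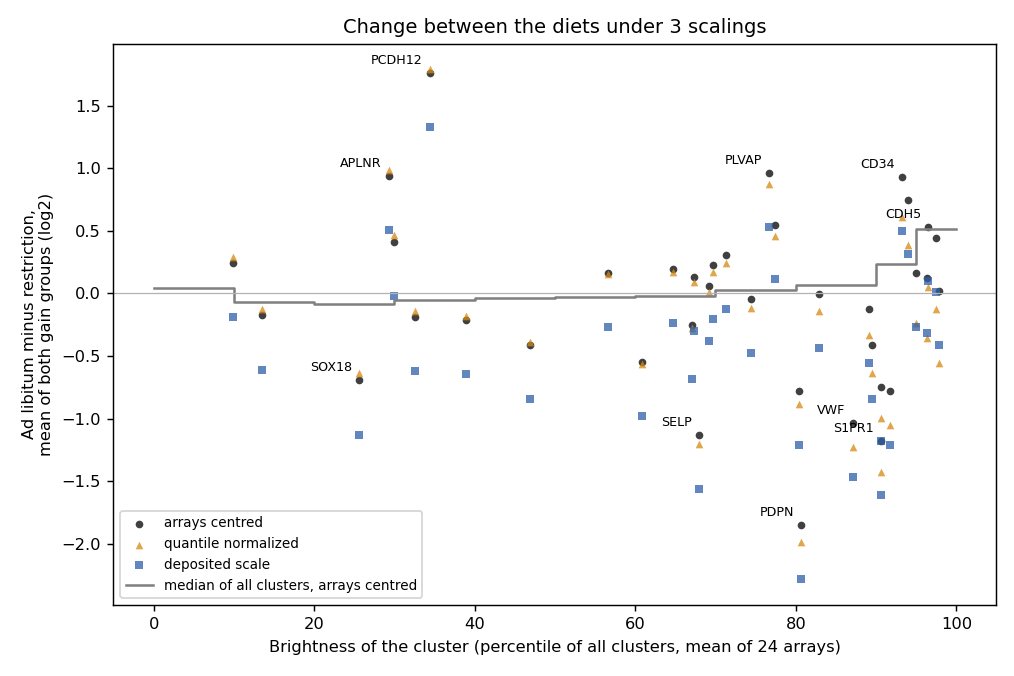
Log2 change between the diets, averaged over both gain groups, of the 37 genes (vertical axis) against the brightness of their cluster as a percentile of all clusters (horizontal axis), with arrays centred (black circles), quantile normalized (orange triangles) or on the deposited scale (blue squares). The grey steps are the median of all clusters in bands of brightness, which reaches 0.51 in the brightest 5%, where the centred circles lie above the quantile triangles.

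The scale bears on the bright genes. In the brightest 5% of clusters, which hold 5 of the 37 genes (JAM2, EMCN, CDH5, ENG and PECAM1), the median centred change of all clusters between the diets was 0.51, and in the next 5% it was 0.24. With quantile normalization these medians were -0.02 and -0.04. CDH5, VE-cadherin, changed by 0.53 (standard error 0.13, adjusted p = 0.00137 in limma) with centring but by 0.05 with quantile normalization. PECAM1, an adhesion molecule of endothelial junctions, had 0.02 with centring and -0.56 with quantile normalization, and EMCN, a surface sialomucin of capillaries and veins, had 0.12 and -0.35. With quantile normalization 4 of these 5 genes (JAM2, EMCN, ENG and PECAM1) had the other sign, and PECAM1 was called lower, so that the direction of their change between the diets is not settled.

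Among junction, adhesion and surface proteins 4 genes were called higher and 1 lower, beside 26.5% and 24.1% of all clusters. PCDH12, a protocadherin of endothelial junctions, lay between -1.87 and -1.28 (median -1.68) in high gain cows at restriction and between -0.36 and 0.37 (median -0.10) at ad libitum feeding. Low gain cows had it between -1.84 and -1.44 (median -1.63) and then between -0.27 and 0.57 (median 0.34). Every cow was higher at ad libitum feeding, and no value at restriction reached a value at ad libitum feeding in either group. The share of all clusters without overlap between the diets was not counted, for this gene or for those below. The averaged log2 change was 1.76 (standard error 0.10, adjusted p = 4.56e-12 in limma without a block, n = 24 arrays of 12 cows).

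PLVAP forms the diaphragms of endothelial fenestrae and caveolae. In high gain cows it had a range of 1.11 to 2.80 (median 2.04) at restriction and of 1.84 to 3.22 (median 2.29) at ad libitum feeding, so that the ranges overlapped. Among low gain cows the ranges were 1.04 to 1.85 (median 1.17) and 2.17 to 3.29 (median 2.97), which did not overlap. The averaged change was 0.96 (standard error 0.18, adjusted p = 9.58e-05 in limma). CD34, a sialomucin of capillary endothelium that adipocyte progenitors also carry, had a range of 4.28 to 5.36 (median 4.63) in high gain cows at restriction and of 4.94 to 5.90 (median 5.10) at ad libitum feeding. Low gain cows went from a range of 3.77 to 4.54 (median 4.22) to one of 4.95 to 6.55 (median 5.43). All 12 cows rose, with overlap of the diets in the high gain group alone, and the averaged change was 0.93 (standard error 0.16, adjusted p = 3.46e-05 in limma). CD34 had the same direction as markers of fibroblasts and adipocyte progenitors. Of these, 10 of 11 were called higher at ad libitum feeding, beside 26.5% of all clusters, and the part of these cells in the change of CD34 was not tested.

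SELP, P-selectin, is stored beside VWF in endothelial granules and in platelets and slows leukocytes on the vessel wall. In high gain cows SELP ran from 1.50 to 6.88 (median 1.81) at restriction and from -0.16 to 1.54 (median 0.33) at ad libitum feeding. Low gain values ran from 0.53 to 1.40 (median 0.96) and from 0.22 to 2.49 (median 0.68). The value of 6.88 belonged to cow H2 and stood far above the next value of 2.55. The averaged change of -1.13 (standard error 0.45, adjusted p = 0.0376 in limma) became -0.71 without H2 (adjusted p = 0.0188), and the call was lost without H3, L2, L3, L5 or L6 (adjusted p = 0.0534 to 0.0763). Of the other 7 surface proteins, the changes were between -0.41 for SELE and 0.20 for JAM3 and none passed the test.

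Receptors were split, with 1 gene higher and 4 lower without a block, beside 26.5% and 24.1% of all clusters. With the cow as a block KDR, ENG, ROBO4 and CLEC14A were called higher too, and FLT4 was not called. APLNR, the receptor of the vessel peptide apelin, lay between -1.85 and -0.68 (median -1.36) in high gain cows at restriction and between -0.998 and -0.35 (median -0.69) at ad libitum feeding. Low gain cows lay between -2.03 and -1.34 (median -1.63) and between -0.93 and -0.01 (median -0.33). All 12 cows rose, and the diets overlapped in the high gain group. The averaged change was 0.94 (standard error 0.14, adjusted p = 4.81e-06 in limma). S1PR1, the sphingosine-1-phosphate receptor that tightens the endothelial barrier, moved the other way.

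In high gain cows S1PR1 fell in every animal, from a range of 4.54 to 5.44 (median 4.96) to one of 2.20 to 3.66 (median 3.32), with no overlap. Low gain cows had 4.08 to 5.36 (median 4.35) and 3.07 to 4.54 (median 4.23), which overlapped, and 4 of 6 animals were lower. The averaged change was -1.18 (standard error 0.18, adjusted p = 1.21e-05 in limma). TEK, the angiopoietin receptor TIE2, had 2.43 to 3.99 (median 3.81) and 1.39 to 2.63 (median 2.19) in high gain cows, against 1.57 to 3.13 (median 2.56) and 1.94 to 2.75 (median 2.16) in low gain cows. Of high gain cows 5 of 6 were lower at ad libitum feeding, all but H4, the lowest of them at restriction, and of low gain cows 3 of 6. The averaged change of TEK was -0.78 (standard error 0.20, adjusted p = 0.00245 in limma), and that of TIE1, its partner receptor, was -0.55 (standard error 0.13, adjusted p = 0.00102). TIE1 had -0.54 in high gain and -0.55 in low gain animals. FLT4, the VEGFC receptor of lymphatic vessels, changed by -0.21 (adjusted p = 0.0403), a call that the block and quantile normalization did not keep.

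The VEGF receptor KDR changed by 0.74 at an adjusted p of 0.0501, just above the threshold, with cows of the high gain group in both directions. ENG, an endothelial co-receptor of BMPs, had 2 clusters. The one used had an averaged change of 0.44 (adjusted p = 0.0551 in limma) and the dimmer one of 1.01 (adjusted p = 2.67e-06), so that its change depended on the cluster. CLEC14A, ROBO4 and RAMP2 had changes of 0.55, 0.31 and -0.42, and FLT1 and ACVRL1 of -0.12 and 0.13. None of these passed the test without a block. With the cow as a block KDR, ENG, CLEC14A and ROBO4 did.

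Of the transcription factors, the ETS factors ERG and FLI1, which keep endothelial genes on, were both lower. ERG had 4.31 to 5.43 (median 5.07) at restriction and 3.08 to 4.14 (median 3.75) at ad libitum feeding in high gain cows, which did not overlap, and 3.76 to 5.40 (median 4.78) and 3.69 to 5.07 (median 4.47) in low gain cows, which did. The averaged change was -0.78 (standard error 0.20, adjusted p = 0.00207 in limma). FLI1 changed by -0.75 (standard error 0.17, adjusted p = 0.000623), and at restriction the 6 high gain cows lay close together, between 4.66 and 4.94.

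The 3 SOXF factors, which share roles in artery and lymph vessel formation, did not move as one. SOX18 changed by -0.70 (standard error 0.18, adjusted p = 0.0029 in limma), SOX7 by 0.41 (standard error 0.15, adjusted p = 0.0237) and SOX17 had -0.19 (adjusted p = 0.0685). SOX18 ranged from -1.34 to 0.62 (median -0.16) in high gain cows at restriction and from -1.79 to -1.31 (median -1.61) at ad libitum feeding. Low gain values ranged from -2.11 to -0.89 (median -1.29) and from -1.91 to -1.07 (median -1.50). High gain cows at restriction were thus the group that stood higher, with 4 of 6 cows above every value of the other 3 groups, while H4 and H6 lay among low gain cows.

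VWF was the only one of the secreted proteins and NO synthase to pass the test without a block, and EGFL7 passed as well with the cow as a block. In high gain cows VWF had 3.44 to 4.72 (median 4.40) at restriction and 2.01 to 3.10 (median 2.42) at ad libitum feeding. For low gain cows VWF was 3.47 to 4.29 (median 3.76) and 2.51 to 4.40 (median 3.80). All high gain cows fell, with no overlap between the diets, while the diets overlapped in low gain cows, of which 5 of 6 were lower and L1 was higher. The averaged change was -1.04 (standard error 0.20, adjusted p = 0.000144 in limma). EGFL7, a secreted regulator of vessel tube formation, the multimerins MMRN1 and MMRN2 and the endothelial NO synthase NOS3 had averaged changes of -0.18 to 0.23.

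Of the lymphatic genes PDPN, podoplanin, fell and PROX1 rose, although it had the other sign on the deposited scale. PDPN had 2.59 to 7.21 (median 3.94) at restriction and 1.14 to 2.63 (median 1.81) at ad libitum feeding in high gain cows. Low gain cows had 1.28 to 4.03 (median 2.33) and 0.69 to 3.25 (median 1.42). Cow H2 at restriction, the same animal as for SELP, gave the highest value, and L3 was the highest of low gain cows at ad libitum feeding. The averaged change was -1.85 (standard error 0.41, adjusted p = 0.000662 in limma) and -1.51 without H2 (adjusted p = 0.00106). LYVE1, the hyaluronan receptor of lymphatic vessels, had -0.25 (adjusted p = 0.481) and PROX1 0.24 (standard error 0.08, adjusted p = 0.00935).

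**Figure D2:**
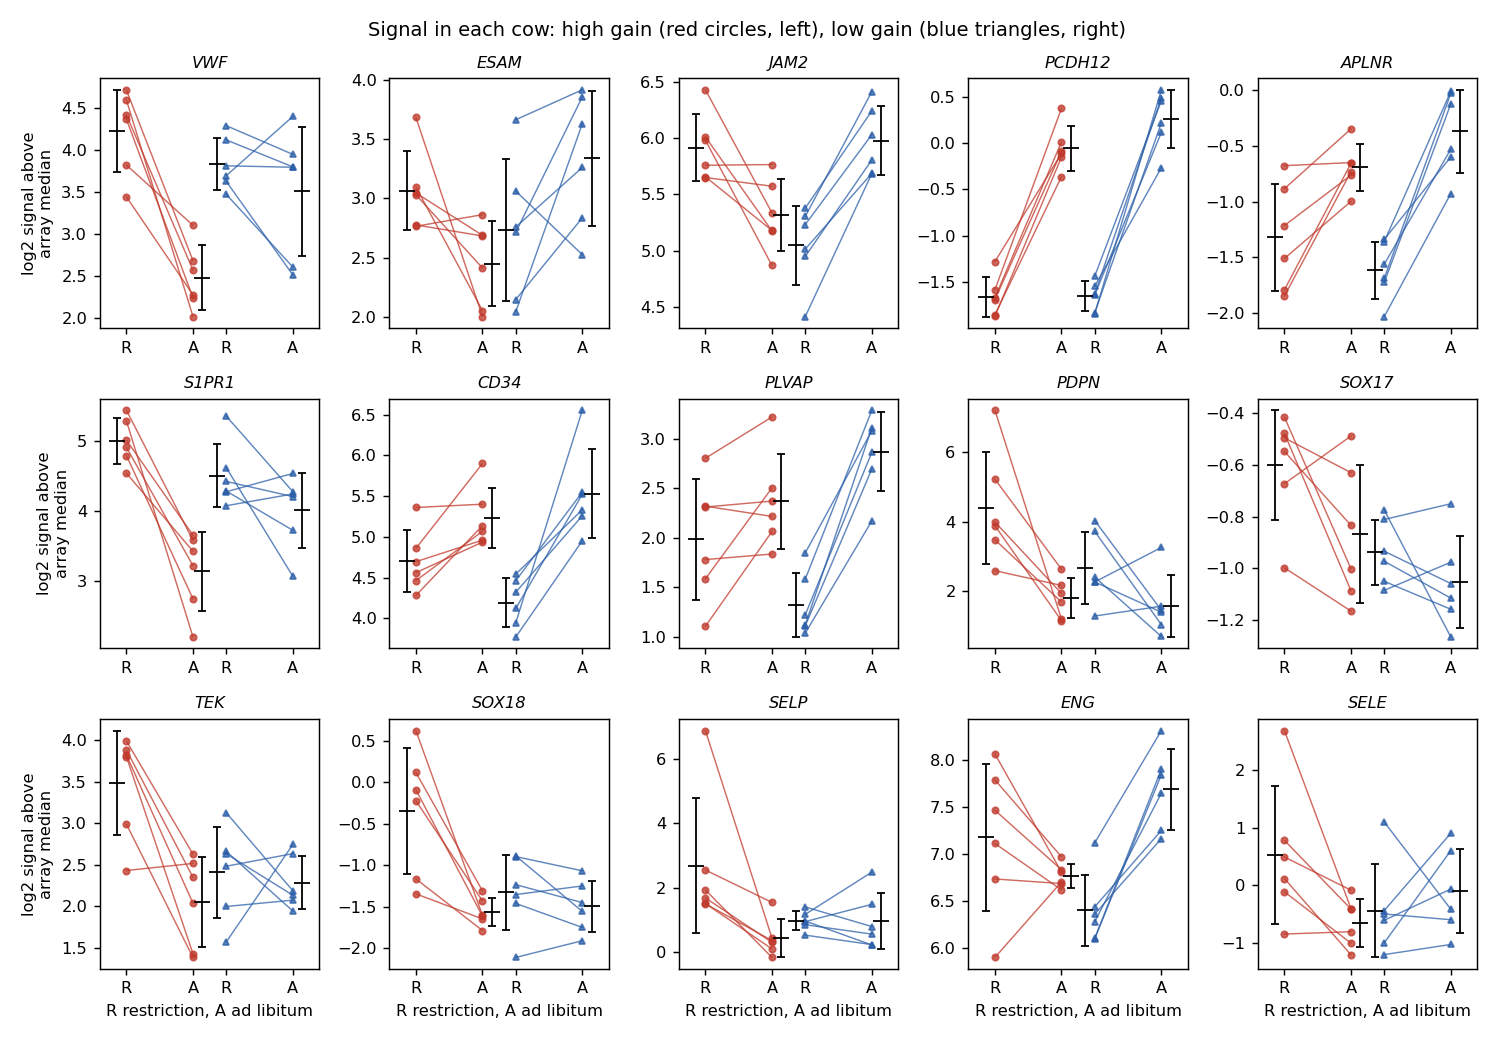
Log2 signal above the array median (vertical axis, scaled to each panel) of 15 genes in every cow at restriction (R) and ad libitum feeding (A), with the 2 arrays of a cow joined, high gain cows as red circles on the left and low gain cows as blue triangles on the right. Black marks are means with the SD of 6 cows, and the JAM2 means go from 5.91 to 5.31 in high gain cows and from 5.05 to 5.98 in low gain cows.

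Averaged over both diets, no gene passed an adjusted p under 0.05 between high and low gain cows in limma, and 0 of all clusters did. At an unadjusted p under 0.05, 4 of the 37 genes stood higher in high gain cows and 0 lower, where 3.63% and 3.98% of all clusters were. The median difference was 0.10. PDPN had 0.98 (standard error 0.35, adjusted p = 0.549), TEK 0.42 (standard error 0.18, adjusted p = 0.618), SOX18 0.45 (standard error 0.20, adjusted p = 0.639) and SOX17 0.26 (standard error 0.09, adjusted p = 0.563), with 6 cows in each group. For SOX17, a SOXF factor of arteries, high gain cows had -0.997 to -0.41 (median -0.52) at restriction and -1.16 to -0.49 (median -0.92) at ad libitum feeding, and low gain cows -1.08 to -0.77 (median -0.95) and -1.27 to -0.75 (median -1.09). The groups overlapped at both diets, as they did for the means over both diets of all 37 genes. VWF, ESAM and JAM2 differed by -0.32, -0.28 and 0.10, at adjusted p of 0.758, 0.748 and 0.912.

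The values that led to the choice of these genes are described next. From restriction to ad libitum feeding high gain cows had a median log2 change of -0.27 over the 37 genes and low gain cows of 0.30, against -0.01 and 0.02 for all clusters. Clusters of like brightness, between the lower and upper quartile of these genes, had -0.03 and 0.07. That span leaves out the brightest of the 37 genes. In the brightest 5% of clusters, with 5 of the 37 genes, the medians were 0.47 and 0.56. The next 5%, with 5 more, had 0.18 and 0.29. In high gain cows 2 genes were higher (PCDH12 and APLNR) and 10 lower (JAM2, SELP, ESAM, PDPN, S1PR1, TEK, VWF, FLI1, ERG and SOX18) at an adjusted p under 0.05, beside 17.9% and 16.1% of all clusters. Among low gain cows 10 genes were higher (PCDH12, PLVAP, CD34, CDH5, JAM2, ACVRL1, KDR, ENG, APLNR and EGFL7) and 1 lower (TIE1), beside 18.6% and 14% of all clusters. JAM2 was the one gene called in opposite directions, although with quantile normalization its rise in low gain cows was not called. On the deposited scale all clusters had medians of -0.42 and -0.43, and the 37 genes had -0.68 and -0.16. Centring takes 1 constant off each array, so the gap between these genes and all clusters is the same on both scales by construction.

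The mean change over the 37 genes was negative in every high gain cow, with -0.51 in H1, -0.68 in H2, -0.47 in H3, -0.04 in H4, -0.70 in H5 and -0.22 in H6. It was positive in every low gain cow, with 0.57 in L1, 0.45 in L2, 0.23 in L3, 0.47 in L4, 0.03 in L5 and 0.31 in L6. H4 and L5 thus lay nearly at 0. Between 10 and 17 of the 37 genes rose in a high gain cow and between 21 and 30 in a low gain cow.

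In levels, the mean of the 37 genes was 2.07 to 2.87 (median 2.51) in high gain cows at restriction and 1.99 to 2.19 (median 2.02) at ad libitum feeding. The low gain cows went from 1.75 to 2.30 (median 1.96) to 2.20 to 2.52 (median 2.28). The gain groups overlapped at restriction, whereas at ad libitum feeding every low gain cow lay above every high gain cow. Both gain groups came closer together at ad libitum feeding. The SD went from 0.29 at restriction to 0.07 in high gain cows, and from 0.22 to 0.14 in low gain cows.

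**Figure D3:**
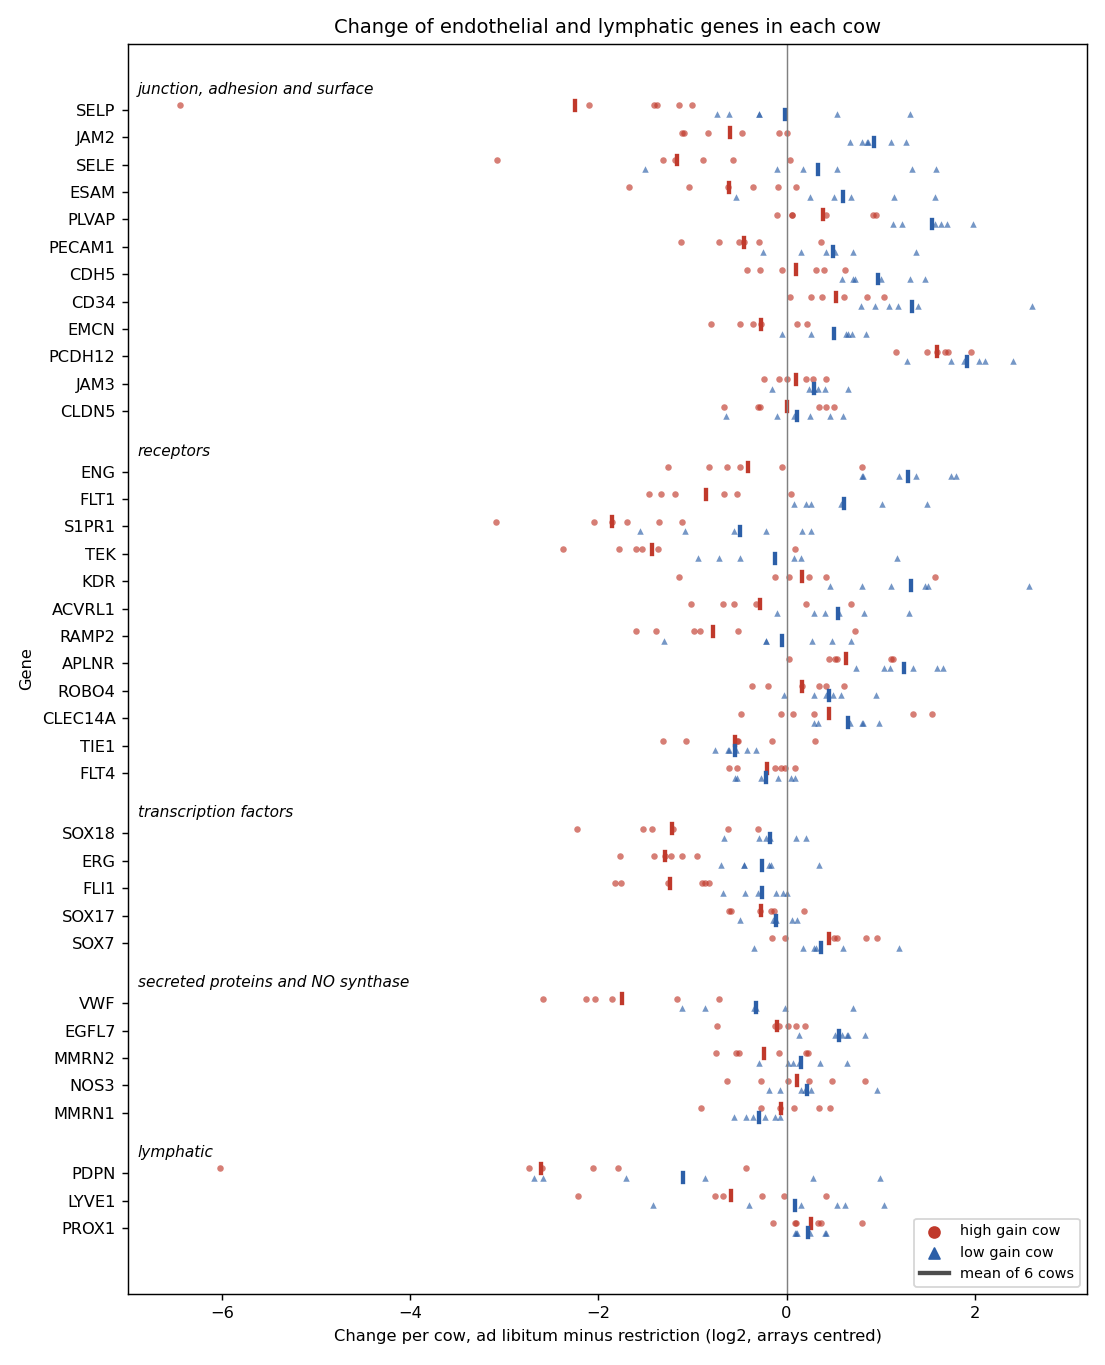
Log2 change of the 37 genes from restriction to ad libitum feeding in each cow (horizontal axis, arrays centred), by role and ordered by the difference between the groups, with high gain cows as red circles, low gain cows as blue triangles and group means as bars. The symbols do not overlap for SELP, JAM2, PLVAP, FLT1, ERG and FLI1, and coincide in their means for TIE1 and FLT4.

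The mean change of high gain cows minus that of low gain cows was negative for 32 of the 37 genes, with a median of -0.80 (all clusters -0.01) and a range of -2.23 (SELP) to 0.23 (MMRN1). For 30 genes it was negative whichever cow was left out. The per-cow changes of the groups did not overlap for SELP, JAM2, PLVAP, FLT1, ERG and FLI1, in each case with high gain cows lower, as for 0.384% of all clusters. Over all clusters 5 passed an adjusted p under 0.05 for this difference (0.02%), and JAM2 was 1 of them, beside CYYR1, CAVIN3, SLC29A1 and SORBS2. These numbers give the background and are no support for the genes, which were chosen for this pattern.

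By role, the median difference of change was -0.91 for the junction, adhesion and surface proteins, -0.78 for the receptors, -0.98 for the transcription factors, -0.39 for the secreted proteins and NO synthase and -0.67 for the lymphatic genes. All 12 surface proteins had a negative value. The 6 largest differences were those of SELP, ENG, JAM2, PDPN, SELE and FLT1.

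JAM2 had 5.65 to 6.43 (median 5.87) in high gain cows and 4.41 to 5.38 (median 5.12) in low gain cows at restriction, with no overlap. At ad libitum feeding high gain cows had 4.87 to 5.76 (median 5.26) and low gain cows 5.68 to 6.41 (median 5.92), which overlapped by 1 high gain cow, H5. Its change was -0.60 ± 0.49 (SD) for the 6 high gain cows, while low gain cows had 0.93 ± 0.22 (SD, n = 6). With quantile normalization these changes were -0.96 and 0.48, and the difference of change was -1.44 in place of -1.53.

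ENG had 5.89 to 8.07 (median 7.29) and 6.62 to 6.97 (median 6.75) in high gain cows, with H4 alone higher at ad libitum feeding. Low gain cows had 6.10 to 7.12 (median 6.32) and 7.16 to 8.32 (median 7.75), and all 6 rose. At ad libitum feeding every low gain cow stood above every high gain cow, as for 0.236% of all clusters, and ENG was the gene of the 37 for which this held. The difference of change was -1.70 for the cluster used and -1.26 for the dimmer cluster, but high gain cows changed by -0.41 in the first and by 0.38 in the second.

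ESAM had 2.77 to 3.68 (median 3.04) in high gain cows at restriction and 2.00 to 2.86 (median 2.55) at ad libitum feeding, against 2.05 to 3.66 (median 2.74) and 2.53 to 3.92 (median 3.45) in low gain cows. The groups overlapped at each diet, and 5 of 6 high gain cows were lower and 5 of 6 low gain cows higher at ad libitum feeding. The difference of change was -1.22, and the averaged change was -0.005 (adjusted p = 0.986 in limma). FLT1, which binds VEGF with little signalling of its own, had 3.27 to 5.52 (median 4.12) and 2.84 to 4.59 (median 3.22) in high gain cows. Low gain cows showed 2.89 to 4.48 (median 3.49) and 3.17 to 5.06 (median 4.09), and all 6 of them were higher at ad libitum feeding. The difference of change of FLT1 was -1.46, and that of KDR, the main signalling receptor of VEGF, was -1.16.

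SELE, E-selectin, which appears on activated endothelium, ranged from -0.84 to 2.68 (median 0.31) in high gain cows at restriction and from -1.20 to -0.08 (median -0.60) at ad libitum feeding. Low gain values ranged from -1.20 to 1.097 (median -0.55) and from -1.02 to 0.90 (median -0.24). H2 was again the highest of high gain cows at restriction, as it was for SELP, PDPN and LYVE1. Without H2 the difference of change went from -2.23 to -1.39 for SELP, from -1.51 to -0.83 for PDPN, from -1.51 to -1.13 for SELE and from -0.67 to -0.35 for LYVE1. For the other genes with a difference beyond 0.5 in size, no single cow moved it by over 1.5 times.

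Other genes with a difference of change below -1 were VWF (-1.42), S1PR1 (-1.36), TEK (-1.30), PLVAP (-1.16), SOX18 (-1.04) and ERG (-1.03). On the centred scale the way in which the groups came to differ was not the same. For S1PR1, TEK, SOX18, ERG, FLI1 and VWF high gain cows fell and low gain cows changed by -0.50 to -0.13 in the mean. For PLVAP, KDR, CD34 and CDH5 low gain cows rose, by 1.55, 1.32, 1.33 and 0.97, and high gain cows moved by 0.38, 0.17, 0.53 and 0.10. KDR, CD34, S1PR1, ERG and FLI1 lay between percentiles 90 and 95 of brightness. All clusters there changed by a median of 0.18 in high gain and 0.29 in low gain cows. In the brightest 5%, which hold CDH5, these medians were 0.47 and 0.56. How far each group moved thus depends on the scale for these bright genes. Differences near 0 were those of TIE1 (0.00), FLT4 (0.01), PROX1 (0.03), SOX7 (0.08), CLDN5 (-0.10) and NOS3 (-0.11). PCDH12, with the largest rise between the diets, differed by -0.31.

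**Figure D4:**
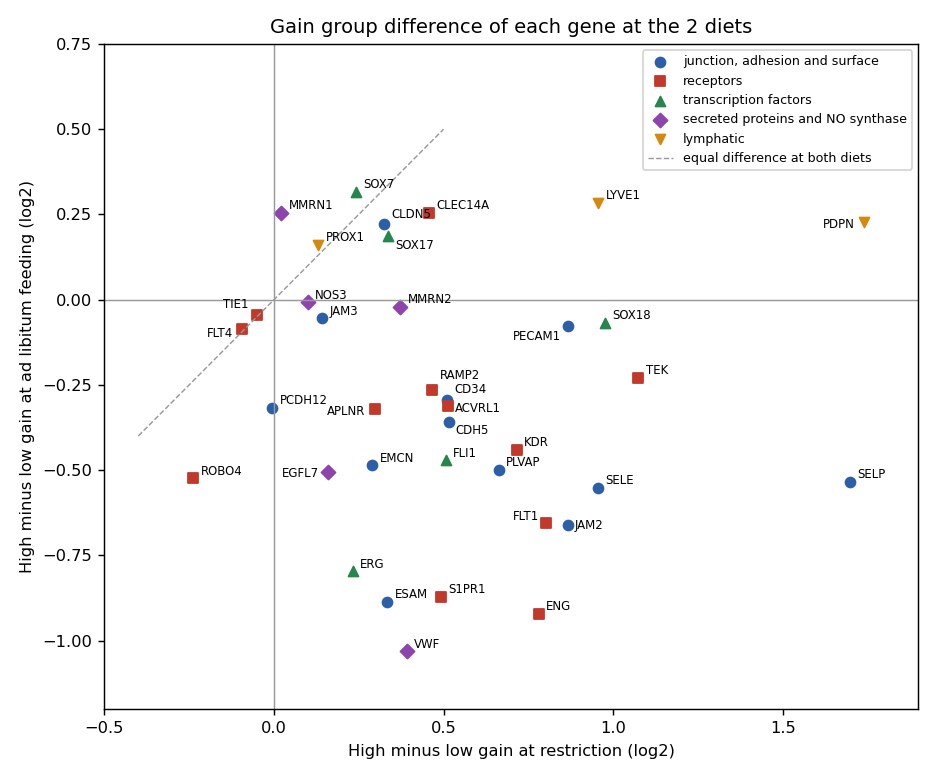
Log2 difference of high minus low gain cows for each of the 37 genes at restriction (horizontal axis) and at ad libitum feeding (vertical axis), coloured by role. The dashed line marks an equal difference at both diets, and most genes lie below it, to the right of 0 at restriction and under 0 at ad libitum feeding, with VWF at 0.39 and -1.03.

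Seen by diet, 33 of the 37 genes were higher in the mean of high gain cows at restriction (median difference 0.46), and 29 were lower at ad libitum feeding, with a median of -0.31. All clusters had medians of 0.00 and -0.01. No gene passed an adjusted p under 0.05 in limma at either diet, nor did any of the other clusters. At an unadjusted p under 0.05, 14 genes were higher and 0 lower at restriction, beside 4.92% and 4.3% of all clusters, and at ad libitum feeding 0 were higher and 10 lower, beside 2.63% and 4.62%. JAM2 and SELP were the genes whose groups did not overlap at restriction, as for 0.256% of all clusters. The largest difference at restriction was that of PDPN, 1.74, and 1.18 without H2. Then came SELP with 1.70, and 0.86 without H2, and TEK with 1.07. At ad libitum feeding the largest were those of VWF at -1.03, ENG at -0.92, ESAM at -0.89 and S1PR1 at -0.87.

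Within groups the genes varied together only in part. Over the deviations of the 24 arrays from their group means, the 666 pairs of the 37 genes had a mean correlation of 0.11, beside 0.00261 over all pairs of clusters, and 423 pairs were positive. The pairs share the arrays, and those of KDR and FLT1, both VEGF receptors, at 0.80, LYVE1 and PDPN at 0.72, PECAM1 and CDH5 at 0.68 and SELE and SELP at 0.67 were among the highest. CLEC14A and MMRN1 were the lowest at -0.72. CLEC14A, PECAM1 and CDH5 had the highest mean correlation with the other 36 genes, of 0.24, 0.23 and 0.23, and MMRN1 and FLT4 the lowest, at -0.16 and -0.13.

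Other endothelial genes, 45 measured of 47 listed, had a median difference of change of -0.50, and it was negative for 41. Averaged over gain, 10 of them were higher and 13 lower between the diets (median -0.06), beside the 26.5% and 24.1% of all clusters. EPAS1, a hypoxia-responsive transcription factor, changed by 1.77 (standard error 0.13, adjusted p = 2.14e-10 in limma), CALCRL, the receptor that RAMP2 serves, by 1.96 (standard error 0.15, adjusted p = 5.16e-10), the arterial connexin GJA4 by 0.98 (standard error 0.17, adjusted p = 4.49e-05) and the scavenger receptor STAB2 by -0.34 (standard error 0.06, adjusted p = 6.76e-05). EPAS1 and STAB2 had differences of change near 0, at -0.04 and -0.07. Chosen after their values were seen, ACKR1, a chemokine receptor of venules, had a difference of change of -2.42 and CYYR1 of -1.66. That of ACKR1 was the lowest of the list, and the highest was 0.78.

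Of 10 other lymphatic genes 8 were measured, and 1 was higher and 1 lower between the diets, against the same shares of all clusters, with a median difference of change of 0.02. CCL21, the chemokine of lymphatic vessels, changed by -0.78 (standard error 0.10, adjusted p = 1.65e-06 in limma) and SEMA3A, a guidance ligand, by 0.83 (standard error 0.19, adjusted p = 0.00106). CCL21 differed in its change by 0.24 between the gain groups.

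Growth factors and ligands of endothelium, 23 measured of 24 listed, had 8 genes higher and 6 lower between the diets, where 26.5% and 24.1% of all clusters were. FGF2, a mitogen of endothelial cells, fell by 1.75 on the log2 scale (standard error 0.22, adjusted p = 8.18e-07 in limma), BMP4 by 1.63 (standard error 0.20, adjusted p = 3.77e-07) and BMP10, a ligand of ACVRL1, by 0.42 (standard error 0.06, adjusted p = 8.31e-06). The chemokine CXCL12 rose by 1.97 (standard error 0.27, adjusted p = 2.6e-06). The median difference of change of the list was -0.19, with 16 genes negative and 7 positive and a range of -1.71 to 1.04. Chosen after their values were seen, the KDR ligand VEGFA changed by 0.21 in high gain cows and 1.45 in low gain cows, and the TEK ligand ANGPT2 by 0.24 and 1.94. VEGFC, the ligand of FLT4, changed by -0.22 and -0.04 and apelin (APLN) by 0.29 and 0.28.

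**Figure D5:**
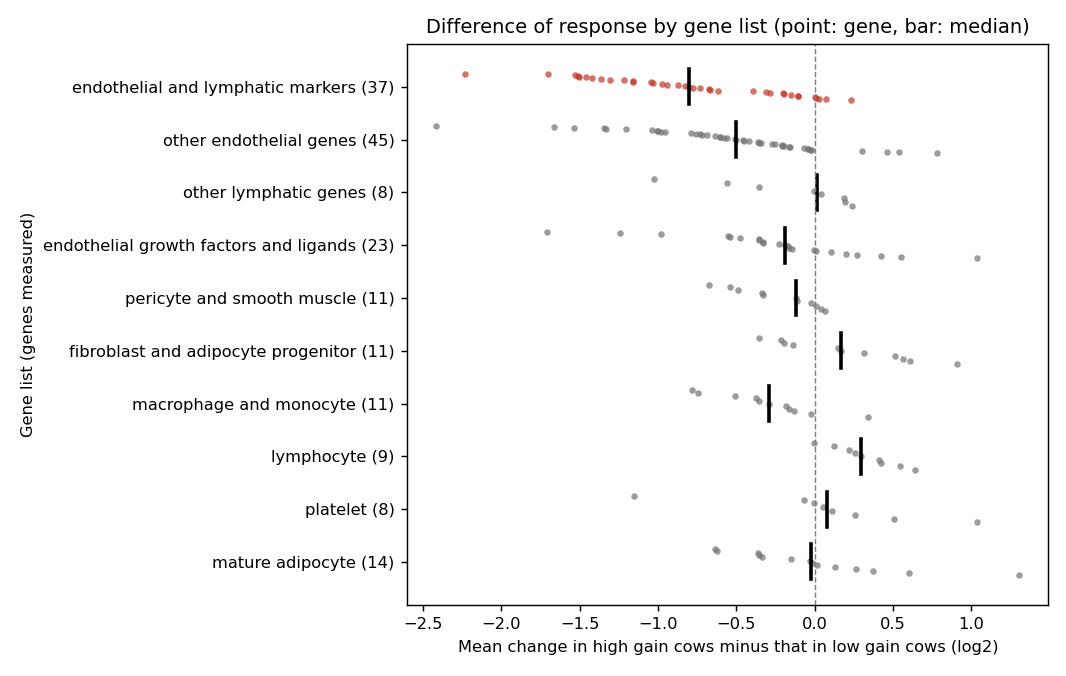
Mean log2 change of high gain cows minus that of low gain cows (horizontal axis) for the genes of each list (points) and their medians (bars). The median is -0.80 for the 37 endothelial and lymphatic markers and -0.50 for 45 other endothelial genes, and those of the lists of other cell types lie between -0.29 and 0.30.

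Markers of other cells, some of which carry genes of this kind too, were set beside the difference of change, and their part in it was not tested. The median difference of change was -0.12 for pericytes and smooth muscle (8 of 11 negative), 0.17 for fibroblasts and adipocyte progenitors (4 of 11), -0.29 for macrophages and monocytes (10 of 11), 0.30 for lymphocytes (1 of 9), 0.08 for platelets (3 of 8), -0.03 for mature adipocytes (8 of 14), 0.16 for skeletal muscle (2 of 8) and 0.06 for skin (2 of 6). For erythrocytes it was 0.12 (0 of 6), with values from 0.01 to 1.70. All 6 erythrocyte genes were lower in the mean of high gain cows at restriction, by a median difference of -0.14 and a range of -2.47 to -0.06. The mean level of the macrophage list was 1.25 to 2.06 in high gain cows and 0.50 to 1.34 in low gain cows at restriction, and 1.07 to 2.88 and 0.69 to 1.80 at ad libitum feeding. In that list the median high minus low difference came to 0.69 at restriction, and it came to 0.38 when feed was free. The pericyte list had 2.56 to 3.12 and 2.25 to 3.09 at restriction and 2.40 to 3.50 and 2.55 to 3.02 at ad libitum feeding, which overlapped throughout. The platelet list, whose cells also carry VWF, SELP and PECAM1, had group means of -0.63 to -0.37.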

How the data were processed

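Adipose RNA of 12 cows was measured at both diets, on 24 Bovine 1.1ST arrays. The deposited values are log2 signals per transcript cluster, made by the authors with GC correction (GCCN), signal space transformation (SST) and RMA summarization. The submitters' processing notes name Affymetrix Expression Console and Transcriptome Analysis Console, whose versions are not given in the sources used here. Whether the arrays of both diets were normalized together is not stated. Array medians were 8.26 to 8.34 at restriction and 7.83 to 7.94 at ad libitum feeding, so each array was centred on its median, and changes are relative to that centre. On the deposited scale all clusters shifted by -0.42 (high gain) and -0.43 (low gain). No 2 arrays were identical (0 pairs). Tables of the authors' own comparisons (fold changes and p-values) were not used for any value.

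The diet of a sample follows from the biopsy number in its title, and group means made with this mapping matched the group averages of the study's tables in 113 of 113, 60 of 60, 1998 of 1998 and 1998 of 1998 entries. Of 26773 clusters, 1776 whose identifiers lie below those of any named cluster were left out and 24997 were tested. By the GEO platform annotation 18790 of these had 1 gene symbol, 385 had several and 5822 had none listed. Genes were matched by a single symbol, and of several clusters of a gene the brightest was taken. No sequences are printed, and coordinates are not used here.

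Groups were compared in limma 3.58.1 (R 4.3.3) with moderated variances and no block, since the study's methods name none. The averaged diet change was fitted on all 24 arrays, the averaged gain difference on the mean of each of the 12 cows, and each response or single diet on the 12 arrays concerned. The Benjamini-Hochberg adjustment ran over the 24997 clusters with a threshold of 0.05. The code was tested on simulated data. Arrays of the same cow are paired by the animal number in the titles. Their deviations from group means correlated at a median of 0.19 (0.10 to 0.34) for high gain and 0.10 (0.03 to 0.29) for low gain animals, against -0.05 and -0.02 for different cows. The precision is limited by the number of arrays, and each animal is 1 replicate.

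The members and gene lists were chosen with earlier results of these data known. Values of every group are given for VWF, ESAM and JAM2, for the 6 genes with the smallest p of the averaged diet change, the 4 with the smallest p of the averaged gain difference and the 6 with the largest difference of change. Of the other lists up to 4 genes with the smallest p of the averaged diet change are named. ERG, FLI1 and the other genes given with values were chosen after their values were seen. Alternatives were the deposited scale, quantile normalization, leaving out dim clusters, all clusters, the cow as a fixed or random block, an unmoderated one-way test (also at the p and fold thresholds of the study's methods) and leaving out each cow. Background correction and scan or slide batches could not be examined, as scanner files are not used here.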

Additional observations from a re-analysis of the deposited data

Results flagged for a closer look

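In 148 groups of 6 cows, a gene in 1 group each, the highest or lowest value was checked for a gap to its nearest neighbour that was large against the range of the group. Chance gives about 1 such value in 20 groups, and 8 were found. At restriction in the high gain cows, SELP was 6.88 in H2 with the next value at 2.55, and ESAM was 3.68 in H1 with the next at 3.10. At ad libitum feeding in the high gain cows, SELP was 1.54 in H1 with the next at 0.44, and ACVRL1, a receptor of BMP9 and BMP10, was 1.85 in H5 with the next at 1.23. At restriction in the low gain cows, SELE was 1.097 in L5 with the next at -0.43, and ENG was 7.12 in L6 with the next at 6.44. At ad libitum feeding in the low gain cows, CD34 was 6.55 in L1 with the next at 5.55, and PDPN was 3.25 in L3 with the next at 1.56. All 8 were the highest of their group. For 0 of the 37 genes did every high gain cow move one way and every low gain cow the other.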

How the results depend on the processing

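On the deposited scale 4 genes were higher and 21 lower between the diets averaged over gain (median -0.42), beside 8.5% and 64.7% of all clusters. High gain cows had 1 higher and 23 lower (median -0.68), beside 6.71% and 51.8%, and low gain cows 8 higher and 11 lower (median -0.16), beside 5.97% and 54.4%. The averaged change had the other sign there for 11 genes, JAM2 (-0.27), SOX7 (-0.023), PROX1 (-0.19), ACVRL1, CLDN5, EGFL7, EMCN, JAM3, NOS3, PECAM1 and ROBO4, and with quantile normalization for 4, JAM2 (-0.24), ENG (-0.13), EMCN and PECAM1. Quantile normalization gave 7 genes higher and 2 lower in low gain cows (15.1% and 15.9%). With clusters under the median brightness left out, 4 of the 28 genes remaining were higher between the diets (31% of those clusters) and 0 in high gain cows (20.6%), and with every cluster of the deposited table kept, 11 were higher between the diets (26.5%) and ESAM had 0.021. With the pairing by cow as a block 12 genes were higher between the diets and 9 lower, and no other count moved by over 1.5 times. Averaged over diets, the cow as a random block called 2 clusters between the gain groups, neither of them a member. An unmoderated one-way test, at an unadjusted p under 0.05 and over 2-fold, gave 1 gene higher and 9 lower in high gain cows (5.02% and 2.06% of all clusters), 6 higher and 0 lower in low gain cows (4.53% and 1.06%), 1 higher and 0 lower in high than low gain cows when restricted (0.232% and 0.288%) and, when fed freely, 0 higher and 1 lower (0.136% and 0.112%).

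Leaving out 1 cow at a time, the diets averaged over gain gave 6 to 11 genes higher (11 without H5) and 8 to 11 lower, with a median of -0.005 to 0.08, and ESAM had -0.10 to 0.11, above 0 without H1, H5, L1, L3 or L6. The high gain cows had 1 to 2 higher (1 without H3, H5 or H6) and 8 to 11 lower (median -0.33 to -0.24), and the low gain cows 9 to 11 higher and 1 to 2 lower (2 without L3, median 0.25 to 0.38). The median of the gain difference was 0.02 to 0.15 averaged over diets, 0.35 to 0.56 at restriction and -0.35 to -0.23 at ad libitum feeding, with 0 genes called each time, and that of the difference of change was -0.92 to -0.75. The call of FLT4 was lost without L1, L2, L3, H3, H4 or H6 (adjusted p in limma 0.0537 to 0.114) and that of SOX7 without L6 or H6 (0.0742 and 0.0634). The causes were not tested. Spot backgrounds are not used here, so how far the dimmest genes, such as PROX1, stood above background is not known.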
